A study of Mus musculus with 2 samples.

Results

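Ependymal-like cells made up 153 of the 3035 barcodes kept from 2 single-cell libraries of the mouse locus coeruleus, the noradrenergic nucleus of the brainstem. They were chosen by a gate on the unique molecular identifiers (UMIs, 1 per counted RNA molecule) of 8 cilia genes. Dnah12, Dnah6, Cfap299, Spag17, Ccdc180, Tmem212, Cfap43 and Dnah11 had to sum to at least 20 UMIs per 10000 UMIs of a barcode, with at least 3 of the 8 detected. Kept barcodes had 300 or more genes and no more than 20% of UMIs from mitochondrial genes, which 3035 of 3100 deposited barcodes did.

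The mice were wild-type C57BL/6N, male and female, and 3 to 4 weeks old, and the labels give the libraries as batch 1 and batch 2 of 1 group with no treatment. Library 1 held 304 barcodes and library 2 held 2796, with a median of 11010 and 1517 UMIs per barcode. The labels describe papain-dissociated cells fixed in methanol as well as nuclei sorted on 7-AAD, without saying which library held which, and give neither the number of mice nor any pooling. No barcode sequence was shared by the libraries. The p-values below therefore rest on 2 libraries whose spread may be technical.

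Ependymal cells line the ventricles of the brain as a single epithelial sheet. Each carries a tuft of motile cilia that moves the cerebrospinal fluid, and the cells arise from radial glia, as astrocytes do. The sheet at the floor of the fourth ventricle lies close to the locus coeruleus. The files hold no position of a cell, so the ventricle of origin was not tested.

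Library 1 gave 19 of these cells among 295 kept barcodes (6.44%, exact binomial 95% interval 3.92% to 9.88%). Library 2 gave 134 of 2740 (4.89%, 4.11% to 5.77%), the intervals covering counting error only. In library 1 the ependymal-like cells had a median of 8967 UMIs and 3399 genes, and in library 2 they had 1425.5 UMIs and 852.5 genes. Their median mitochondrial share was 4.00% and 7.38%, against 2.41% and 5.10% in the other kept barcodes of the same libraries. Depth thus differed between the libraries far more than between the ependymal-like cells and the rest, where medians were 11382 and 1514.5 UMIs.

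The values of the gate are a description. The 8 genes summed to a median of 120.0 UMIs per 10000 in library 1 (74.3 to 142) and 107.4 in library 2 (23.5 to 193). Of the 2882 other kept barcodes, 90.8% had no UMI of any of the 8. The 3 lowest cells inside the gate had 23.5, 25.0 and 28.8 UMIs per 10000, while the nearest barcode outside with at least 3 of the genes had 9.16. Another 6 barcodes lay at or above the threshold with fewer than 3 of the genes, the highest at 45.0. The gate thus fell into a nearly empty range of the sum.

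**Figure D1:**
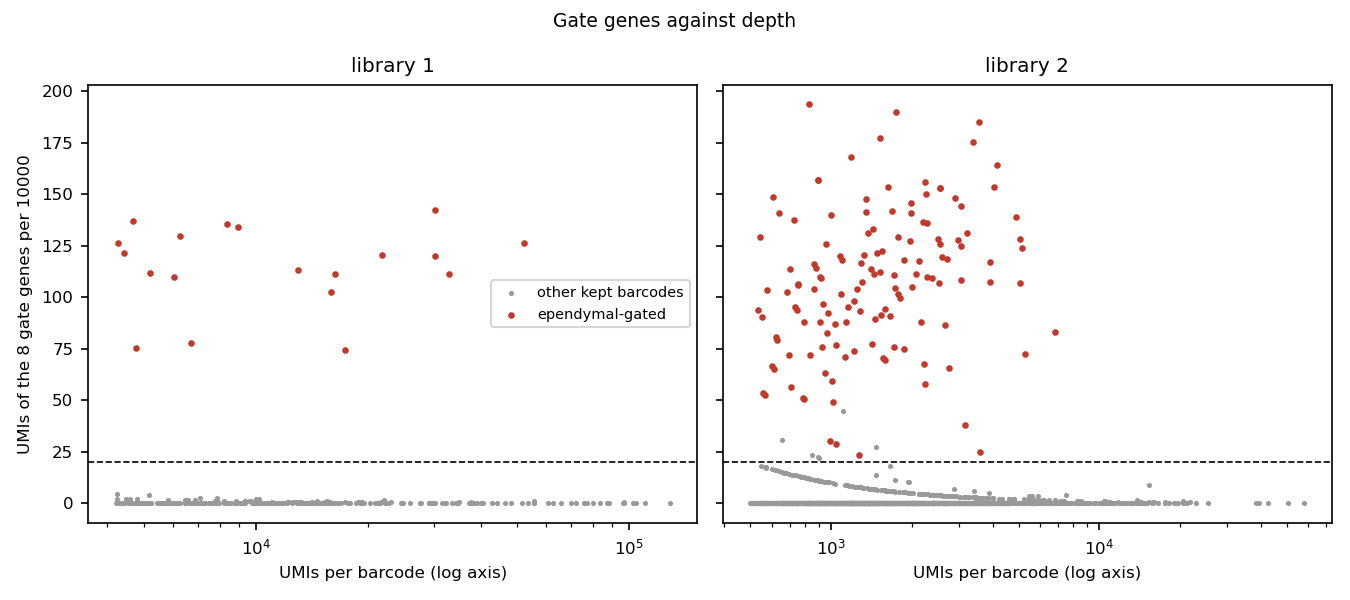
Summed UMIs of the 8 gate genes per 10000 UMIs (vertical axis) against the UMIs of each kept barcode (horizontal log axis) in library 1 and library 2. Red points are the 153 ependymal-like cells, grey points the 2882 other kept barcodes, and the dashed line is the threshold of 20; the curved grey rows are barcodes with 1, 2 or a few UMIs of the genes.

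The label was checked on ependymal markers outside the gate. The chemokine-like adipokine Rarres2 stood at 131 and 93.2 normalized counts (CPM, a gene's UMIs divided by the total of the class and scaled to 1000000) in the ependymal-like cells of library 1 and library 2, and at 0.951 and 0.156 in all other kept barcodes. The surface glycoprotein Cd24a stood at 166 and 63.5 against 24.2 and 11.1 CPM, the membrane protein Tm4sf1 at 187 and 136 against 5.14 and 6.25, and the secreted protein Mia at 72.6 and 50.8 against 0.761 and 1.25. The check list holds 18 genes, of which 12 are cilia genes like those of the gate. All 17 tested were higher than in all other barcodes. Against astrocytes the 16 tested were higher too, but 11 of them had 3 UMIs or fewer in that reference and passed the low-count filter through the ependymal-like cells alone. The gene of the list that passed no low-count filter, Pifo, stood at 17.3 and 16.9 CPM against 0.380 and 0.469. At least 1 UMI of the list was found in 19 of 19 and 127 of 134 cells, mostly from its cilia genes. A UMI of Rarres2, Tm4sf1, Mia, Cd24a or Vim was found in 18 of 19 and 52 of 134 ependymal-like cells (94.7% and 38.8%), and in 15.6% and 4.76% of the other barcodes. With S100b, the remaining gene of the list outside cilia, the shares were 94.7% and 71.6%, against 38.4% and 21.7% of the other barcodes.

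Markers of 5 other cell types summed to less than in the classes they mark. Those classes were gated in part on the same genes, namely 4 of the 9 neuronal, 5 of the 8 astrocyte, 4 of the 8 oligodendrocyte, 6 of the 9 vascular and all 7 microglial markers, so a high sum there was set in part by the gates. The 9 neuronal markers summed to 149 and 360.0 CPM, against 4724 and 4174 in neuron-like barcodes, and the 8 astrocyte markers to 197 and 140, against 5594 and 6138 in astrocyte-like barcodes, with Gjb6 at 0 in both libraries. Oligodendrocyte markers summed to 881 and 911 CPM, against 45765 and 28370 in oligodendrocyte-like barcodes. Vascular markers summed to 41.5 and 114 CPM, against 5936 and 9175. Microglial markers summed to 701 and 525 CPM, against 619 and 467 in the other barcodes and 3802 and 4864 in microglia-like barcodes, and 5 of the 7 microglial markers were at 0 in each library. Choroid plexus markers summed to 51.8 and 38.1 CPM, against 52.5 and 52.4 in the other barcodes. Of these, Clic6 was higher (34.5 and 12.7 against 0.571 and 0.781 CPM) and Prlr lower (0 and 12.7 against 46.8 and 44.2). Prlr made up most of the sum in the other barcodes, so the near sums do not show like levels of the other markers. Tanycyte markers summed to 114 and 152 CPM, against 60.7 and 57.4 in the other barcodes. Among them the collagen gene Col23a1 (76.0 and 84.7 CPM) was higher than in the other barcodes (log2 fold 2.52 ± 0.39, edgeR adjusted p = 9.64e-05) and differed from astrocytes by -0.22 ± 0.48, while Scn7a (27.6 and 55.1 CPM) did not pass the test. Ttr, Rax and Crym had no UMI in any barcode of either library and so check nothing. Of 8 cell cycle genes only Cenpf had a UMI (13.8 and 16.9 CPM).

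**Figure D2:**
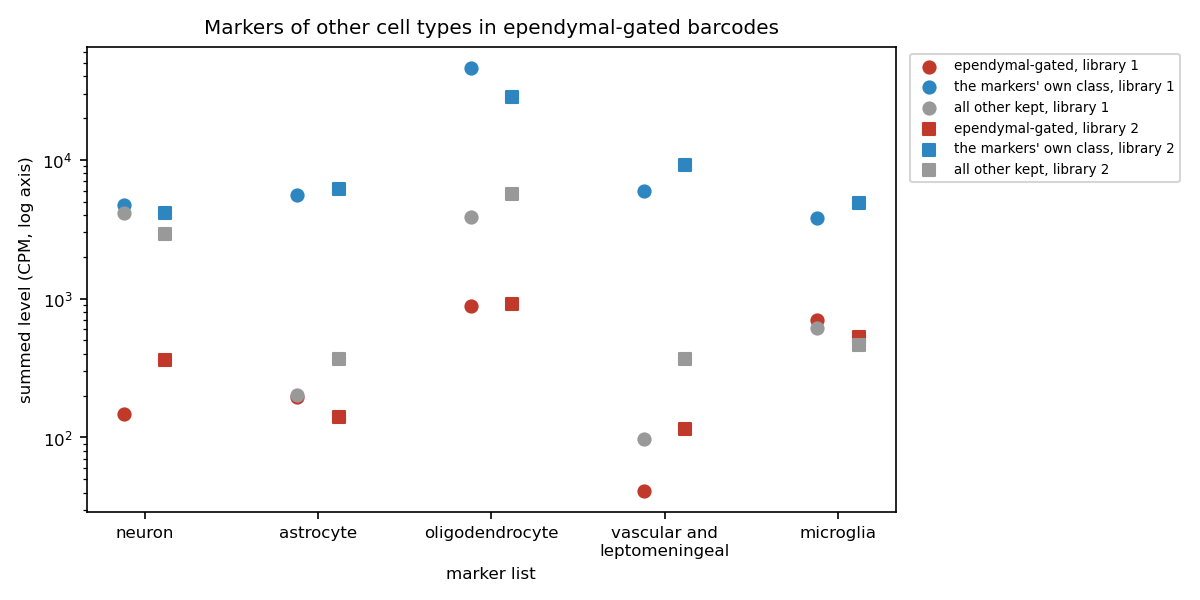
Summed level of each marker list (vertical log axis, CPM) for 5 other cell types (horizontal axis). Red is the ependymal-like cells, blue the class the markers belong to and grey all other kept barcodes; circles are library 1 and squares library 2. The red points lie below the blue in every list, by the least for microglia.

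The first comparison set the ependymal-like cells against all other kept barcodes. Of these, 196 and 1026 were neuron-like, and they held 4517739 of the 5257365 UMIs of that reference in library 1 and 4164215 of 6398274 in library 2. UMIs were summed per class and library, and edgeR's quasi-likelihood test with the library as a block was fitted to 13148 genes. At a Benjamini-Hochberg adjusted p under 0.05, 16.5% of the genes were called higher in the ependymal-like cells and 16.3% lower, or 2172 and 2141 genes. The counts of called genes per list below are to be read beside these shares. Outside genes with a cilia name or listing, 1844 were higher and 2086 lower of 12461 tested. A cilia name was told by the start of the symbol alone, such as Dnah, Cfap, Ccdc, Kif, Wdr or Fam. Such names also take in genes of other functions. Of the 4313 called genes, 4309 moved the same way in both libraries. The median log2 fold over all genes was -0.19.

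The second comparison used 263 barcodes that passed an astrocyte gate (19 and 244) as the reference, since astrocytes are the closest glial relatives in the dissection. Of these, 13 and 220 passed no other gate. They held 76326 of the 156308 reference UMIs in library 1 and 232815 of 275454 in library 2. The rest came from barcodes that also passed another gate, and the values given for astrocytes include them. The comparison called 20.2% of 4777 tested genes higher and 12.9% lower in the ependymal-like cells, or 964 and 617. Outside genes with a cilia name or listing these were 713 and 593 of 4391. The astrocyte sums were small, and 333 of the 964 genes called higher had 3 UMIs or fewer in them. Such genes entered the test through the ependymal-like cells alone and all were called, so the counts against astrocytes below are a description. A gene may be high against neurons and low against astrocytes, so the astrocyte value is given beside the first for many genes. Folds are log2 folds with their SE, over 2 libraries. Levels were also set side by side over 5 other gated classes (astrocyte-, oligodendrocyte-, oligodendrocyte precursor-, vascular- and neuron-like); microglia-like barcodes, 1 and 8 in number, were left out of that order.

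Among genes without a cilia name or listing, which may still include ciliary genes, Unc5cl was among the 12 with the largest rise over all other barcodes. Unc5cl encodes a membrane-bound protein of the UNC5 family. It lies on chromosome 17 from 48454901 to 48539714 (GRCm38, GENCODE M21), plus strand, and no annotated gene overlaps it. Its level was 1572 and 881 CPM in the ependymal-like cells of library 1 and library 2 and 0.761 and 2.03 in the others, a log2 fold of 9.68 ± 0.50 (edgeR adjusted p = 7.24e-10). No other class exceeded 10.8 CPM of Unc5cl, so the groups did not overlap in either library. All 19 cells of library 1 and 91 of 134 in library 2 had a UMI of it. Thinned to 1000 UMIs per barcode, 84.2% (60.4% to 96.6%) and 59.1% (48.5% to 69.2%) still did, against 0 of 38 and 0 of 465 oligodendrocyte-like barcodes, where 3 UMI-bearing barcodes would be a share of 7.89% and 0.645%. Without thinning, 1 of 38 and 2 of 537 oligodendrocyte-like barcodes had a UMI of it.

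Frmpd2, a scaffold protein with PDZ domains, and its neighbour Ptpn20, a protein tyrosine phosphatase, were both higher than in all other barcodes. Frmpd2 stood at 677 and 703 CPM against 0.380 and 2.50 (log2 fold 8.94 ± 0.50), and Ptpn20 at 104 and 59.3 against 0 and 0.156. The other barcodes held 1 UMI of Ptpn20, so its fitted log2 fold (9.33 ± 0.78) is a description. Frmpd2 and Ptpn20 lie on the plus strand of chromosome 14, from 33471696 to 33575269 and from 33589207 to 33640754. Crocc2 (304 and 301 CPM against 0.380 and 0.625), 1700028P14Rik (301 and 254 against 0.190 and 0.625) and 2010001K21Rik (549 and 665 against 0.380 and 1.25) rose as well.

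Some genes had no UMI outside the ependymal-like cells in this sample of 2882 barcodes. The amino acid and nucleobase transporter family member Slc43a3 stood at 55.3 and 97.4 CPM, at least 288-fold above the level that 3 UMIs over both libraries would give. The predicted genes Gm49896 (128 and 114 CPM) and Gm40761 (48.4 and 88.9 CPM) were at least 473-fold and 259-fold higher by the same floor, and 1700024G13Rik and Gm33543 at least 148-fold and 111-fold. The annotation gives no function for these last 4. Going the other way, Gabra3, a GABA-A receptor subunit, the zinc finger gene Bnc2 and the sialyltransferase gene St8sia3 had no UMI in the ependymal-like cells. They were at least 10.7-fold, 10.8-fold and 9.48-fold lower than in the other barcodes, where they stood between 43.3 and 76.3 CPM in each library.

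Several glial transcription factors were higher in the ependymal-like cells than in all other barcodes. Of 18 tested factors of glia and radial glia, 12 were higher than in all other barcodes and none lower, with a median log2 fold of 1.56. Sox9, a master regulator of glial fate, stood at 263 and 165 CPM against 4.95 and 7.50 (log2 fold 5.12 ± 0.38, edgeR adjusted p = 2.55e-08). Zbtb20 was at 2698 and 2702 CPM against 594 and 754 (2.06 ± 0.27), Nfia at 1151 and 894 against 163 and 291 (2.27 ± 0.33), and Nfix at 498 and 504 against 74.2 and 151 (2.29 ± 0.32). Yap1, the Hippo pathway effector that ependymal development needs, stood at 86.4 and 110 CPM against 4.37 and 14.2 (3.57 ± 0.42), and differed from astrocytes by 1.06 ± 0.54, which was not called. Sox2 rose by 2.26 ± 0.47, although against a reference without neurons its call was lost.

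Against astrocytes most of these factors did not pass the test. Id4 was higher by 1.45 ± 0.50 and Nfix by 1.29 ± 0.46, while Tcf7l1, a Wnt pathway repressor, was lower by a log2 fold of -1.62 ± 0.50, each at an edgeR adjusted p between 0.0051 and 0.0192. DESeq2 called none of these 3. Sox9 differed by 1.11 ± 0.50 (edgeR adjusted p = 0.0743) and Sox2 by 0.49 ± 0.53. In the order of classes, Sox9 was highest in the ependymal-like cells and next in astrocyte-like barcodes (183 and 116 CPM), whose ranges over the libraries overlap, while every other class stayed at or below 17.4 CPM.

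Regional patterning genes, which mark positions along the neural tube, moved in part. Of 21 tested, 9 were higher than in all other barcodes and 3 lower, beside 16.5% and 16.3% of all tested genes. Pax3, a dorsal neural tube factor, stood at 211 and 174 CPM against 6.85 and 10.6 (log2 fold 4.52 ± 0.36, edgeR adjusted p = 5.92e-08), with a difference from astrocytes of 0.59 ± 0.49 that was not called, and with astrocyte-like barcodes at 236 and 155 and oligodendrocyte precursor-like barcodes at 139 and 65.0. Irx5 stood at 114 and 131 CPM (4.44 ± 0.38) and Irx3 at 72.6 and 38.1 (3.67 ± 0.52), both above every other class in both libraries. Msx1, a roof plate and BMP target gene, stood at 41.5 and 29.6 CPM (5.43 ± 0.73), with the vascular-like barcodes next at 15.4 and 24.1 and no other class above 0.221. Against astrocytes Irx5 was the 1 called gene of 6 tested (1.61 ± 0.52), and DESeq2 did not call it. Lmx1a, at 30.1 and 27.4 CPM in the other barcodes, had no UMI in the ependymal-like cells and was at least 5.00-fold lower. Otx2 had no UMI in the ependymal-like cells, but only 5 in all barcodes of both libraries, too few for its absence to tell anything.

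Developmental signalling genes split by their reference. Of 33 tested genes of the Notch, Hedgehog, Wnt, BMP and FGF pathways, 13 were higher and 4 lower than in all other barcodes, whereas 5 were higher and 7 lower of 22 tested against astrocytes. Among the ligands, Wnt4 stood at 159 and 212 CPM. The other barcodes had 8.56 and 11.3 (log2 fold 4.27 ± 0.34, edgeR adjusted p = 6.02e-08). Astrocytes had 0 and 10.9 CPM of Wnt4, from 3 UMIs, so the fitted log2 fold there (4.83 ± 0.68) is a description. Bmp6 stood at 176 and 131 CPM against 5.71 and 9.38 (4.41 ± 0.39), and astrocytes had no UMI of it, which makes it at least 22.5-fold higher there. DESeq2 did not call Bmp6 against astrocytes. Wnt4 and Bmp6 were highest in the ependymal-like cells in both libraries, and no other class passed 15.4 CPM of either.

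Several receptors and inner components of these pathways were higher than in all other barcodes, while Fgfr3 (1.34 ± 0.61, edgeR adjusted p = 0.102) and Ptch1 (0.48 ± 0.33, edgeR adjusted p = 0.295) did not pass. Lrp2, the endocytic receptor megalin, stood at 86.4 and 46.6 CPM against 1.52 and 1.41 (log2 fold 5.47 ± 0.58). Smad6, an inhibitor of BMP signalling, stood at 62.2 and 46.6 against 0.380 and 6.25 (4.39 ± 0.73), and against astrocytes it was higher by 2.35 ± 0.82 without a DESeq2 call. Notch1 stood at 89.8 and 72.0 against 5.33 and 15.0 (3.17 ± 0.46), and Notch2 at 93.3 and 63.5 against 7.23 and 14.4 (2.97 ± 0.44). The Hedgehog receptor component Smo rose by 3.29 ± 0.54. Against astrocytes Notch1, Notch2 and Smo did not pass the test, at 0.09 ± 0.51, -0.04 ± 0.50 and -0.91 ± 0.51. The Hedgehog pathway genes Ptch1 and Gli2 were called lower there. Ptch1 stood at 100.2 and 93.2 CPM against 429 and 701 in astrocytes (-2.41 ± 0.49, edgeR adjusted p = 8.86e-06), and Gli2 was lower by -1.91 ± 0.51. Fgfr3, a receptor typical of astrocytes, stood at 27.6 and 25.4 CPM against 159.9 and 323 (-3.00 ± 0.55). Fgfr1 was higher than in the other barcodes, at 221 and 212 CPM against 95.7 and 73.6.

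Among receptors for transmitters, peptides and purines, 6 of 30 were higher and 10 lower than in all other barcodes, beside 16.5% and 16.3% of all tested genes. Cckbr, the cholecystokinin and gastrin receptor, stood at 135 and 59.3 CPM against 3.04 and 3.44 (log2 fold 4.88 ± 0.47, edgeR adjusted p = 5.79e-07). Only neuron-like barcodes among the other classes held a UMI of it (3.54 and 4.80 CPM). Npy2r, a neuropeptide Y receptor, stood at 24.2 and 16.9 CPM against 2.28 and 1.56 (3.43 ± 0.73), and the ATP-gated channel P2rx7 at 72.6 and 67.8 against 6.66 and 12.5 (2.97 ± 0.44). P2rx7 was also higher than in astrocytes (1.79 ± 0.66), without a DESeq2 call. The NMDA receptor subunit Grin2a stood at 231 and 174 CPM, close to the 263 and 259 of the other barcodes (-0.33 ± 0.30, edgeR adjusted p = 0.44). It was higher than the 6.40 and 36.3 CPM of astrocytes (3.15 ± 0.57, edgeR adjusted p = 3.29e-07).

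Glutamate and GABA receptors that astrocytes carry were low. The AMPA receptor subunit Gria1 stood at 3.46 and 46.6 CPM in the ependymal-like cells and 1887 and 1637 in astrocytes (log2 fold -6.25 ± 0.56, edgeR adjusted p = 3.93e-26). The metabotropic receptors Grm3 (34.5 and 38.1 against 326 and 356 CPM) and Grm5 (24.2 and 59.3 against 345 and 203) were lower by -3.12 ± 0.55 and -2.62 ± 0.54. The GABA-A subunit Gabra2 (0 and 16.9 against 96.0 and 163) and the PACAP receptor Adcyap1r1 (6.91 and 4.24 against 89.6 and 131) were lower by -3.95 ± 0.72 and -4.05 ± 0.78. These 2 had 4 and 3 UMIs in the ependymal-like cells. In this list 8 of 17 genes were lower and 3 higher than in astrocytes. Gria1 in the ependymal-like cells differed more than 10-fold between the libraries, on 12 UMIs in all. In library 2, 6 cells also passed the neuron gate and 2 the astrocyte gate, and the cause of the difference was not tested.

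**Figure D3:**
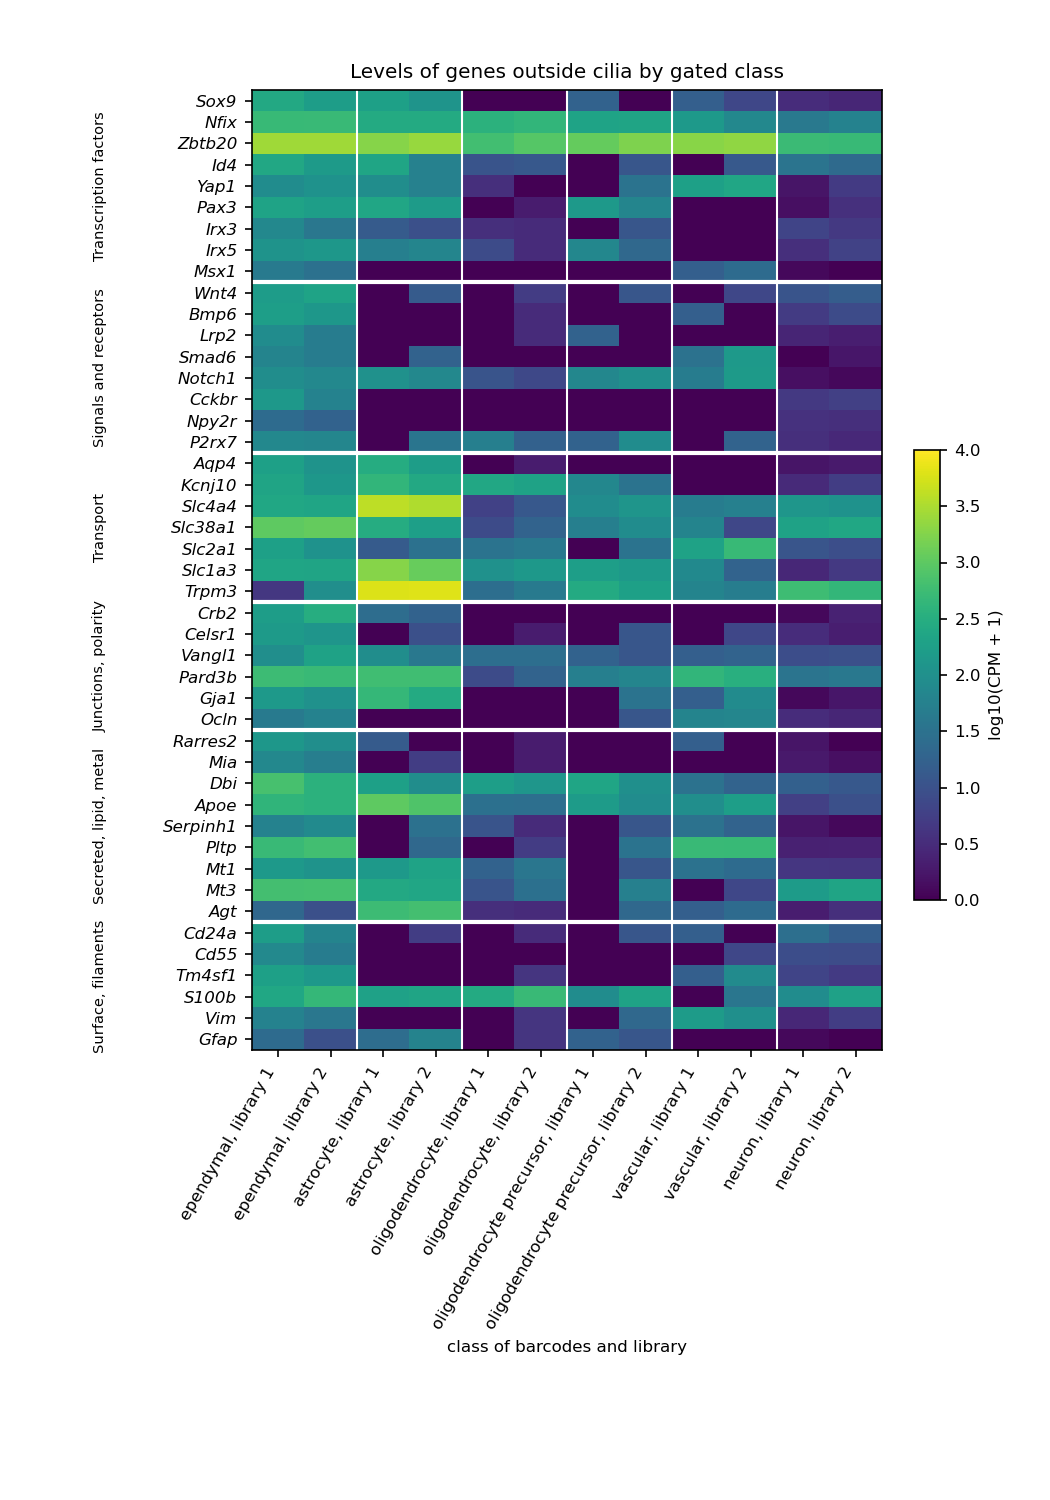
Levels of 45 genes outside cilia (rows, grouped by role) in 6 gated classes of each library (columns), as log10(CPM + 1), where the astrocyte columns, unlike the astrocyte reference of the tests, leave out barcodes that passed another gate. Wnt4, Bmp6, Cckbr, Crb2 and Celsr1 are brightest in the left pair of columns, while Slc4a4, Slc1a3 and Trpm3 are brightest in the astrocyte pair.

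Of 25 tested genes of ion, water and acid-base transport, 8 were higher and 3 lower than in all other barcodes. The water channel Aqp4 stood at 187 and 114 CPM against 5.33 and 11.3 (log2 fold 4.26 ± 0.43, edgeR adjusted p = 1.1e-06) and differed from the 159.9 and 174 CPM of astrocytes by -0.10 ± 0.49, which was not called. The potassium channels Kcnj10 (218 and 131 CPM) and Kcnj16 (58.7 and 29.6 CPM) rose by 2.14 ± 0.36 and 3.54 ± 0.59, the former only with neurons in the reference, and against astrocytes they differed by -0.50 ± 0.48 and -0.05 ± 0.61. The intracellular chloride channel protein Clic6 stood at 34.5 and 12.7 CPM against 0.571 and 0.781 (5.04 ± 0.81).

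Against astrocytes 1 gene of the ion, water and acid-base list was higher, 4 were lower and 11 of the 16 tested did not pass. The sodium bicarbonate cotransporter Slc4a4 stood at 242 and 220.3 CPM against 2188 and 3155 in astrocytes (log2 fold -3.41 ± 0.43). The cation channel Trpm3 showed the widest gap of the transport list, at 3.46 and 93.2 CPM against 3653 and 5994 (-7.02 ± 0.50, edgeR adjusted p = 2.61e-40), and it was low against all other barcodes too (-3.90 ± 0.56). The cystine carrier Slc7a11 stood at 3.46 and 4.24 CPM, from 2 UMIs, against 192 and 236 (-5.53 ± 0.70). The glutamate transporter Slc1a3 stood at 221 and 216 CPM, above the 43.2 and 91.4 of all other barcodes (1.84 ± 0.32) and below the 972 and 1071 of astrocytes (-2.13 ± 0.45). With neurons left out of the first reference Slc1a3 read -0.42.

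Nutrient transport showed 6 of 19 genes higher and 1 lower than in all other barcodes, and 4 higher and 5 lower of 12 against astrocytes. The glutamine transporter Slc38a1 stood at 1009 and 1114 CPM, where the other barcodes had 180 and 185 (log2 fold 2.59 ± 0.29, edgeR adjusted p = 4.08e-06) and astrocytes had 224 and 156 (2.59 ± 0.46). It was highest in the ependymal-like cells in both libraries, and thinned to 1000 UMIs 68.4% and 68.8% of them had a UMI of it, against 30.8% and 13.1% of astrocyte-like and 2.63% and 1.51% of oligodendrocyte-like barcodes. Without thinning the library 2 share of oligodendrocyte-like barcodes was 2.98%. A relative of it, Slc38a3, rose by 4.45 ± 0.39, at 72.6 and 195 CPM against 3.23 and 9.53, and by 1.31 ± 0.50 over astrocytes, without a DESeq2 call there. The glucose transporter Slc2a1 stood at 187 and 110 CPM, where the other barcodes had 14.3 and 30.6 (2.85 ± 0.41) and astrocytes had 12.8 and 29.0 (2.71 ± 0.56), the second without a DESeq2 call.

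Several genes of junctions and apical polarity were higher in the ependymal-like cells. Crb2, a Crumbs protein of the apical membrane, stood at 169 and 309 CPM, where the other barcodes had 0.571 and 1.88 (log2 fold 7.64 ± 0.42, edgeR adjusted p = 9.79e-10) and astrocytes had 12.8 and 14.5 (4.19 ± 0.63, edgeR adjusted p = 7.93e-10). Its polarity partner Pard3b stood at 556 and 504 CPM against 47.7 and 77.7 (3.17 ± 0.32), and differed from astrocytes by 0.29 ± 0.44. Prkcz, an atypical protein kinase C of the same complex, was higher than in astrocytes by 1.91 ± 0.51, which DESeq2 did not call. Ocln, the tight junction protein occludin, stood at 41.5 and 59.3 CPM against 2.66 and 4.85 (3.80 ± 0.54) and had no UMI in astrocytes, a level at least 7.12-fold higher. The gap junction gene Gja1 stood at 142 and 106 CPM against 7.80 and 17.7 (3.41 ± 0.42) and differed from astrocytes by -0.92 ± 0.50. In all, 7 of 24 junction and apical genes were higher and 3 lower than in the other barcodes, and 3 and 3 of 19 against astrocytes.

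Planar cell polarity genes orient the beating cilia across the sheet. Of 19 tested, 8 were higher and 2 lower than in all other barcodes, and 6 of 11 were higher and 2 lower than in astrocytes. Celsr1, an atypical cadherin of the core pathway, stood at 149 and 123 CPM against 2.09 and 2.19 (log2 fold 6.00 ± 0.42, edgeR adjusted p = 1.1e-08), and 6.40 and 10.9 in astrocytes (3.87 ± 0.69). Vangl1 stood at 93.3 and 203 CPM against 11.03 and 15.0 (3.50 ± 0.37), Fat1 at 166 and 148 against 30.6 and 40.8 (2.20 ± 0.32), and the Frizzled receptor Fzd3 at 228 and 165 against 66.6 and 47.7 (1.83 ± 0.30). Celsr1, Vangl1, Fat1, Fzd3 and Ankrd6 were highest in the ependymal-like cells in both libraries. Against astrocytes Vangl1, Fat1 and Fzd3 kept an edgeR call (1.54 ± 0.49, 1.51 ± 0.49 and 1.51 ± 0.50) that DESeq2 did not make.

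Secreted and cerebrospinal fluid proteins were higher in 13 and lower in 3 of 24 tested genes against all other barcodes, with a median log2 fold of 1.49. Dbi, the acyl-CoA and diazepam binding protein, stood at 688 and 377 CPM against 34.6 and 39.9 (3.83 ± 0.34, edgeR adjusted p = 2.48e-07) and 141 and 98.0 in astrocytes (2.20 ± 0.49). Apoe, the main lipid carrier of the brain, stood at 418 and 369 CPM against 26.6 and 69.5 (3.23 ± 0.37), and differed from the 576 and 831 of astrocytes by -0.73 ± 0.44. The collagen chaperone Serpinh1 (58.7 and 80.5 against 1.90 and 3.44) rose by 4.75 ± 0.52, and ceruloplasmin, Cp, by 2.99 ± 0.41. Against astrocytes they were higher by 2.38 ± 0.71 and 4.09 ± 0.84, both without a DESeq2 call. Astrocytes held 2 UMIs of Cp, so its fitted fold there is a description. Lower than in astrocytes were the angiotensin precursor Agt (20.7 and 8.47 against 301 and 603 CPM, -4.69 ± 0.62), Spon1 (24.2 and 8.47 against 454 and 486, -4.71 ± 0.61) and the protease inhibitor Cst3 (44.9 and 76.2 against 301 and 846, -3.04 ± 0.52). In that comparison 7 of 19 genes of the list were higher and 5 lower.

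Of 26 genes of metal binding, antioxidant defence and detoxification, 8 were higher and 3 lower than in the other barcodes, and 15 did not pass. Mt3, the brain metallothionein, stood at 643 and 661 CPM against 140 and 167 (log2 fold 2.14 ± 0.29, edgeR adjusted p = 2.9e-05) and 147 and 218 in astrocytes (1.93 ± 0.46, edgeR adjusted p = 0.000202). Mt1 and Mt2 rose by 3.40 ± 0.44 and 3.36 ± 0.49 and differed from astrocytes by 0.11 ± 0.49 and -0.45 ± 0.54. Against astrocytes 1 of 14, Mt3, was higher and 3 were lower, among them the retinaldehyde dehydrogenase Aldh1a1 (6.91 and 0 against 173 and 269 CPM). The epoxygenase Cyp2j9 had no UMI and was at least 17.9-fold lower.

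In the lipid list 4 of 21 genes were higher and 1 lower than in all other barcodes, a share higher near the 16.5% of all tested genes, and 2 of 12 were higher and 3 lower than in astrocytes. Pltp, the phospholipid transfer protein, stood at 511 and 610 CPM against 7.61 and 23.0 (log2 fold 5.39 ± 0.38, edgeR adjusted p = 1.35e-08) and 6.40 and 21.8 in astrocytes (5.28 ± 0.63). Vascular-like barcodes held a like level of Pltp (509 and 489 CPM). Abca1, a cholesterol exporter, rose by 2.68 ± 0.35, and the fatty acid sensor Ppara by 3.79 ± 0.61, from 27.6 and 46.6 CPM against 1.71 and 3.91. Neither was called against astrocytes, where Abca1 differed by -0.27 ± 0.48 and Ppara by -0.19 ± 0.64. The cholesterol synthesis enzyme Hmgcs1 was lower (-1.46 ± 0.32).

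Of 20 tested genes of antigen presentation, complement and interferon, 3 were higher and 1 lower, where 16.5% and 16.3% of all tested genes were. Cd55, which protects cells from complement, stood at 76.0 and 46.6 CPM against 6.85 and 5.47 (log2 fold 3.34 ± 0.48, edgeR adjusted p = 4.56e-05), with no UMI in astrocytes (at least 9.04-fold higher, without a DESeq2 call). Among filament and neural stem cell genes, 8 of 11 were higher and 1 lower. Vim stood at 58.7 and 38.1 CPM against 3.99 and 8.13 (3.11 ± 0.55), Nes at 55.3 and 25.4 against 3.04 and 9.69 (2.87 ± 0.65), and S100b at 238 and 462 against 102 and 232 (1.15 ± 0.29). Nes and S100b lost their calls against a reference without neurons. Egfr, a stem cell receptor that astrocytes share, stood at 24.2 and 12.7 CPM against 313 and 432 in astrocytes (-4.17 ± 0.60). In the calcium list 6 of 24 genes were higher and 9 lower than in all other barcodes. Calml4, a calmodulin-like protein of that list, stood at 76.0 and 42.4 CPM against 0.190 and 0.156. The other barcodes held 2 UMIs of Calml4, which passed the low-count filter through the ependymal-like cells alone. Its fitted log2 fold (8.12 ± 0.75) is therefore a description.

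Of 12 tested stress genes that rise during dissociation, 2 were higher and none lower, a share higher near the 16.5% of all tested genes. Egr1 stood at 674 and 398 CPM against 249.7 and 248 (log2 fold 1.11 ± 0.30), and Atf3 at 100.2 and 76.2 against 36.7 and 33.0 (1.38 ± 0.36). DESeq2 called neither, and both calls were lost against a reference without neurons. The labels do not say which library held whole cells or nuclei, so the part of handling in these levels was not tested.

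**Figure D4:**
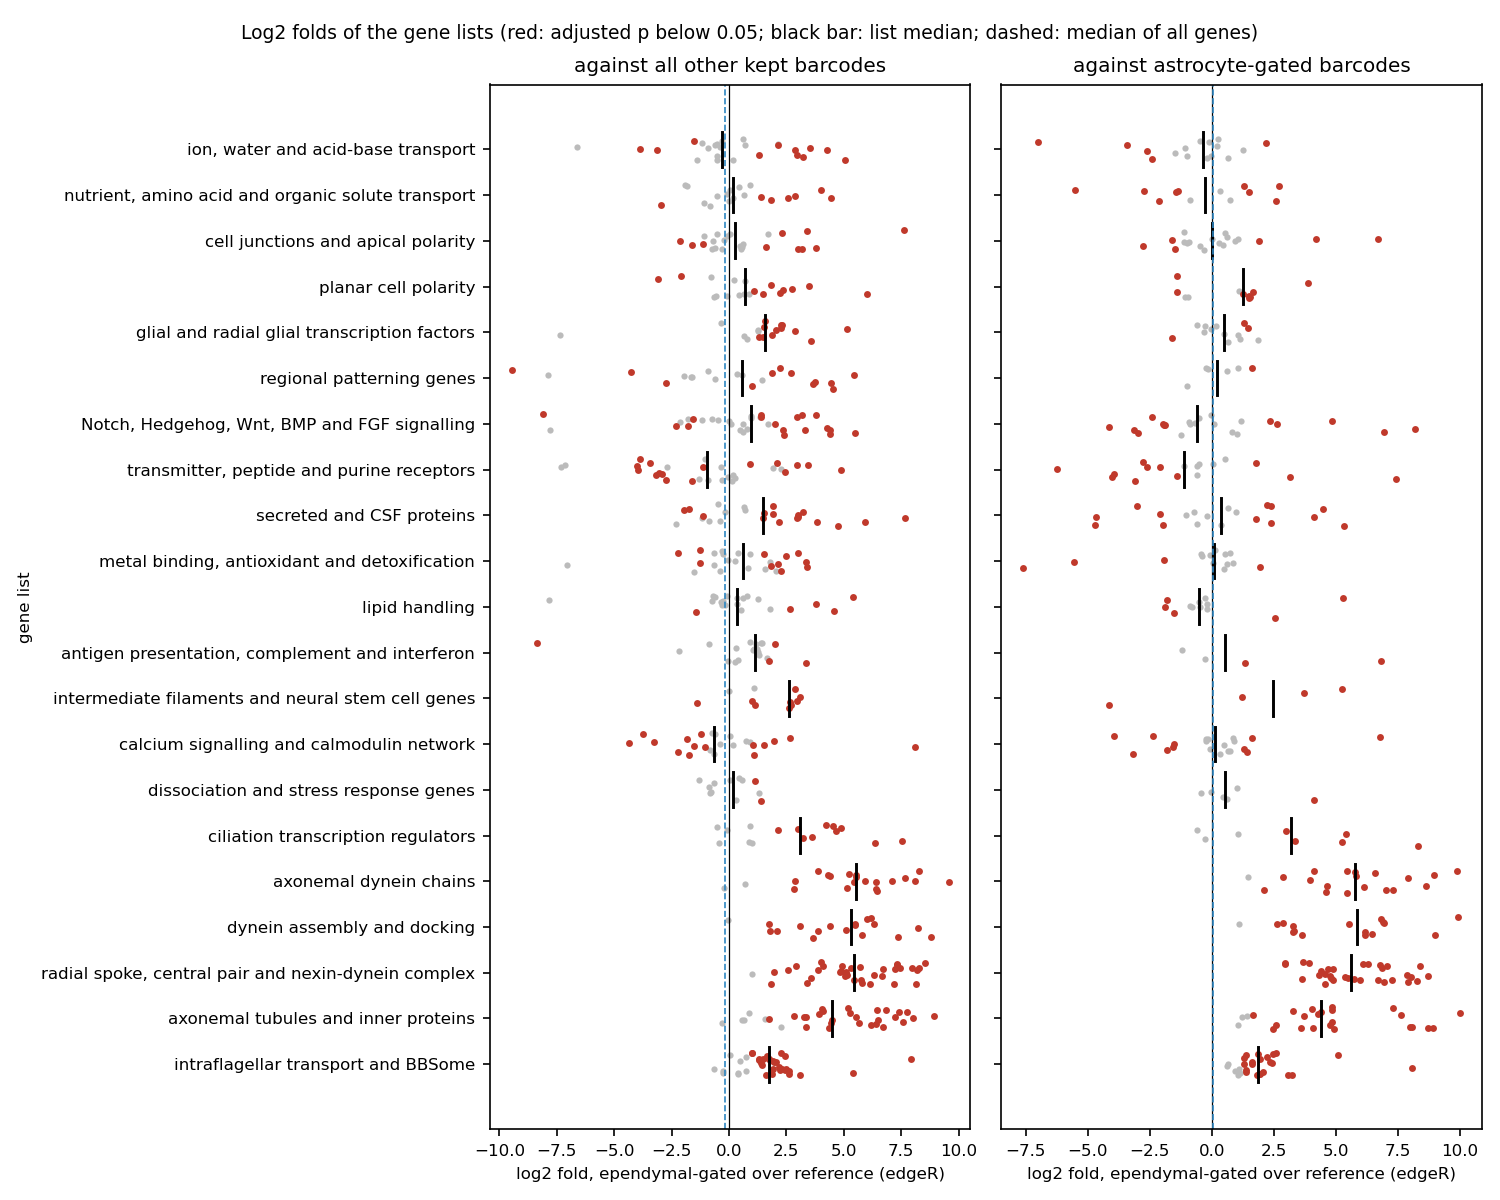
Log2 folds from edgeR (horizontal axis) of the tested genes of each list (rows) against all other kept barcodes (left) and against astrocytes (right). Red points passed an adjusted p of 0.05, black bars are list medians and the dashed line is the median of all tested genes; a gene with no UMI in one class is plotted at its fitted value, which is no bound. The upper 15 lists spread to both sides of 0, and the lower 6, the cilia lists, lie mostly to the right.

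Genes of the cilia lists shared the function of the gate and are therefore given after the rest. Of 679 tested genes with a cilia name or listing outside the gate, 320 were higher and 55 lower than in all other barcodes. Of the 320, 9 had 3 UMIs or fewer in that reference. Against astrocytes 243 of 370 were higher, 115 of them with 3 UMIs or fewer in that reference, and 16 lower. No gene of the cilia lists was lower in either comparison, so the 55 and the 16 came from symbol starts alone. The motor of the cilium is a row of dynein arms: 19 of 21 tested dynein chains were higher and none lower, with a median log2 fold of 5.53. Dnah3, an inner arm heavy chain, stood at 1095 and 1038 CPM against 0.380 and 2.50 (9.56 ± 0.52), and Dnah5, an outer arm heavy chain, at 743 and 580 against 3.42 and 6.56 (7.09 ± 0.41). The levels of both heavy chains were far apart from those of the other barcodes in each library.

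The factors that assemble and dock those arms rose in 17 of 18 cases. Daw1 stood at 221 and 174 CPM against 0 and 0.781 (log2 fold 8.78 ± 0.56), and Armc4, a docking protein, at 456 and 513 against 1.71 and 1.56 (8.23 ± 0.41). Of 35 genes of the radial spokes, central pair and nexin-dynein complex, which regulate the beat, 34 were higher: Hydin of the central pair stood at 1109 and 1148 CPM against 7.23 and 7.50 (7.30 ± 0.37), Spef2 at 1002 and 983 against 4.76 and 9.85, and Cfap61 of the spokes at 1061 and 1250 against 6.47 and 7.03. Genes of the axonemal tubules and their inner proteins were higher in 27 of 33. Ccdc153 stood at 411 and 419 CPM against 0.380 and 1.25 (8.95 ± 0.45). Not 1 tested gene of these lists was lower.

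Intraflagellar transport, which every primary cilium also uses, moved less. Of 37 tested genes of that machinery and the BBSome, 28 were higher and none lower, with a median log2 fold of 1.74. Dync2h1, the motor of return transport, stood at 435 and 402 CPM against 145 and 167 (1.47 ± 0.29). Ttc21a (632 and 745 against 2.66 and 3.13 CPM, 7.92 ± 0.39) and the kinesin Kif9 (411 and 369 against 9.13 and 9.69, 5.41 ± 0.34) stood far above that median.

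Among regulators of ciliation, 10 of 16 were higher and none lower. Foxj1, the master factor of motile cilia, stood at 190 and 67.8 CPM against 7.99 and 5.31 (log2 fold 4.24 ± 0.40, edgeR adjusted p = 5.44e-07). Thinned to 1000 UMIs, Foxj1 was detected in 42.1% (20.3% to 66.5%) of the ependymal-like cells of library 1 and 4.30% (1.18% to 10.6%) of library 2, against 0 of 38 and 1.72% (0.746% to 3.36%) of oligodendrocyte-like barcodes, so that in library 2 the intervals overlapped. Without thinning the library 2 shares were 11.2% (6.40% to 17.8%) and 2.42% (1.30% to 4.10%), at median depths of 1425.5 and 1579 UMIs, and no astrocyte-like barcode of 220 had a UMI of Foxj1, where 3 would be 1.36%. Rfx2 stood at 369.7 and 385 CPM against 16.2 and 17.3 (4.54 ± 0.32) and Rfx3, which many cells carry, at 659.9 and 555 against 141 and 148 (2.12 ± 0.29). Trp73, a p53 relative needed for multiciliation, stood at 142 and 169 CPM against 0.571 and 1.09 (7.52 ± 0.46). Myb (65.6 and 38.1 CPM), Gmnc (24.2 and 12.7) and Deup1 (34.5 and 55.1), which act while centrioles are amplified, rose by 6.35 ± 0.67, 4.68 ± 0.96 and 4.88 ± 0.62.

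**Figure D5:**
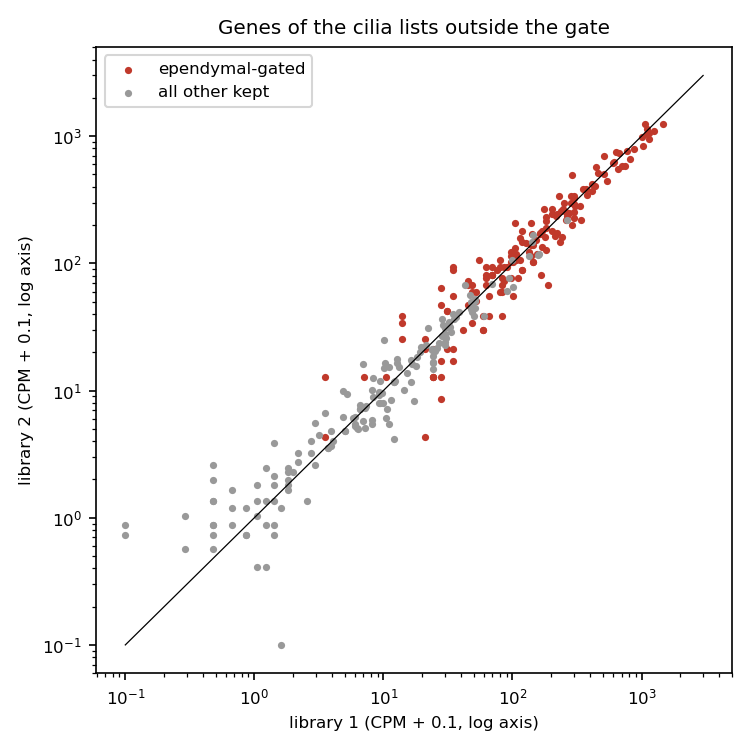
Levels of 160 tested genes of the cilia lists outside the gate in library 1 (horizontal log axis) and library 2 (vertical log axis), as CPM + 0.1, in the ependymal-like cells (red) and all other kept barcodes (grey). The line marks equal levels; red points follow it, and most lie above 20 CPM, where Foxj1 at 190 and 67.8 is among those below the line.

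Regulatory factor X proteins, the family of Rfx2 and Rfx3, bind an inverted repeat called the X-box. The 250 bases before the start of each gene in the RefSeq promoter table (GRCm38.p6) were searched on both strands for the X-box (GTNNCC, any 2 bases, GGNAAC), for the shorter RFX site GTTGCC, which can lie inside it, and for the forkhead motif GTAAACA. The X-box letters were present in 6.98% of 258 cilia genes called higher, 3.27% of 1378 other genes called higher, 1.55% of 1616 genes called lower, 1.87% of 10217 genes tested and 1.24% of all 27025 promoters. The shorter site was present in 28.7%, 16.5%, 13.7%, 13.1% and 11.8% of the same sets, and the forkhead letters in 3.10%, 2.98%, 2.29%, 2.72% and 3.54%. Cilia genes were told by name or listing, so the other genes called higher still held known ciliary genes with an X-box, such as Mks1, Tctn2 and Nphp4. For the same reason the cilia genes called higher may include genes of other functions. A match of letters is a description of the sequence, and binding was not measured.

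The stretches around the X-box letters are shown for some of the genes called higher, chosen after their values were seen. They run 5′ to 3′ on the gene's strand, with the motif in capitals and up to 20 bases on either side. In Ttc29, Cfap206 and Kif9 the motif lies on the opposite strand, so the capitals are its reverse complement.
Ttc29: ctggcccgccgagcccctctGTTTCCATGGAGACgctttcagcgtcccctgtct
Iqca: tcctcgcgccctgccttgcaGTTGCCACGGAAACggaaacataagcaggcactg
Cfap206: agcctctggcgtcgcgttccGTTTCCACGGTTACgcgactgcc
Kif9: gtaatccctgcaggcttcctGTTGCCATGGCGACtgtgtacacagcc
Deup1: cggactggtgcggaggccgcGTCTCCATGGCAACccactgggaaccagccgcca
Tm4sf1: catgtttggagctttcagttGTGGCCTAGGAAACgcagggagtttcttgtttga

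In that order the motif ends 28, 87, 10, 14, 74 and 67 bases before the annotated start. The stretches are chr8:78213281-78213334 (plus), chr1:90153503-90153556 (minus), chr4:34730207-34730249 (minus), chr9:110476947-110476993 (plus), chr9:15627900-15627953 (minus) and chr3:57302035-57302088 (minus). Ttc29 stood at 425 and 280 CPM in the ependymal-like cells and rose by 9.12 ± 0.46, Iqca at 297 and 339 (8.17 ± 0.41), and Cfap206 at 183 and 233 (7.76 ± 0.46). Tm4sf1 was the 1 gene of the 6 outside the cilia names.

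The spread between ependymal-like cells was taken over counts too sparse to show how alike the cells were. Cells were thinned to 1000 UMIs, which left 19 and 93, and the variance of a gene's count over its mean (the Fano factor, near 1 for pure counting) had a median of 0.944 over 2625 genes in library 1 and 1.04 over 1757 genes in library 2. The widest spread belonged to Gm42418, which overlaps ribosomal RNA sequence and took 14.9% and 11.95% of the ependymal-like UMIs (13.5% and 10.1% in the other barcodes), at 10.6% to 21.6% per cell in library 1 and 4.85% to 31.3% in library 2. Pcdh9 and mitochondrial genes were also among the genes of widest spread. Pcdh9 was unevenly held: 2 of the 19 cells of library 1 gave 61.7% of its UMIs, and 13 of 134 cells gave 57.1% in library 2. Unc5cl was more even, with 29.0% and 34.1% of its UMIs in the same numbers of cells.

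No ependymal-like cell of library 1 passed the gate of another class, and 15 of library 2 did, 7 of them the oligodendrocyte precursor gate and 6 the neuron gate. Sex-linked genes were counted too, since mice of both sexes were used. Xist was found in 8 and 17 cells, a Y-linked gene in 9 and 18, and both in 3 cells of library 1 and none of library 2. In 5 and 99 cells neither was found, so these sparse counts cannot tell how many barcodes were mixed. Counts of called genes without the 14 cells that passed a gate other than the astrocyte gate, and without the 11 cells of library 2 with the highest doublet scores, stayed within 1.5 times the values above.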

How the data were processed

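Transcripts were counted in 2 droplet libraries of the locus coeruleus. Per the file headers the deposited matrices of counts (UMIs per gene and barcode, not normalized) came from Cell Ranger 6.1.2, while the submitters' processing notes name Cell Ranger 7.0, Seurat, mm10 and GRCm38; whether introns or strand were used is not given in the sources used here, so reads of overlapping and antisense genes cannot be told apart. The files hold 3100 barcodes, while the series text gives 2578 cells and no filter that leads to that number.

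The members, gene lists and tests were chosen with earlier results of these data known. Barcodes with 300 genes or more and up to 20% mitochondrial UMIs were gated on 7 lists of 8 genes, at 20 UMIs per 10000 with 3 genes detected (neurons 50 and 4). A barcode passing the ependymal gate was ependymal-like; one passing several others joined no class, but the astrocyte reference of the test took every barcode passing that gate and failing the ependymal one. Doublets were kept in the values given and removed in an alternative. UMIs were summed per class and library, and the 4 sums of each comparison were tested with edgeR 4.0.16 (R 4.3.3; glmQLFit and glmQLFTest, TMM, filterByExpr), with library as the block, because both classes come from the same library, which left 1 residual degree of freedom. Benjamini-Hochberg adjustment ran over all genes tested; SE is the log2 fold over the root of F. CPM values are unscaled by TMM; the median CPM fold over all genes was -0.22 and -0.26 in the libraries against -0.19 fitted. The 8 gate genes stayed in the fit and are described only. Tests were checked on simulated data. DESeq2 1.42.0, other filters, gates and references were tried.

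Named by rule were, of called genes outside gates and cilia with the same sign in both libraries and 20 CPM in the higher class, the 12 of largest rise and 8 of largest fall, up to 4 called members per list of highest level (3 per cilia list) and the check genes. Other genes named were chosen from the lists, or from the genes with an X-box, after their values were seen. Some genes that the rule or the lists hold are not reported here by name. Library 1 held 5600693 UMIs and library 2 held 6895380; the ependymal-like cells had 289436 and 236088.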

Additional observations from a re-analysis of the deposited data

How the results depend on the processing

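DESeq2 called fewer genes, 1390 higher and 986 lower against all other barcodes and 380 and 176 against astrocytes, and every one of them was also called by edgeR; among the genes named, 28 calls of the first comparison and 54 of the second were lost. Without the replicate block, that is without pairing the classes by library, edgeR called 2260 and 2299, and 978 and 646; it changed the call of 1 named gene in the first comparison and 3 in the second. Without the low-count filter the higher share of the calls against all other barcodes fell to 38.8% from 50.4% (1863 and 2933 genes). A gate at 10 or 40 UMIs per 10000, removal of the highest doublet scores or of cells passing another gate (the astrocyte gate aside), and a minimum of 500 genes kept each count within 1.5 times. The number of ependymal-like cells ran from 19 to 134 with 1 library left out, and no test was possible then.

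With neurons out of the reference 10 named genes changed direction in log2 fold: Kcnj10 (-0.11), Slc1a3 (-0.42), Prickle2 (-0.15), Igf1r (-0.024), Cd9 (-0.18), Fgfr3 (-0.88), Ptch1 (-0.52), Slc4a4 (-1.17), Ednrb (-0.13) and Grin2a (3.12). The alternative changes only the barcodes of the reference, and the cause was not tested. Near 0 against all other barcodes were Slc4a4 without the filter (-0.087) and Egfr without the doublet scores (0.028), without cells passing another gate (0.11) or with 500 genes (0.17). Against astrocytes these were Kcnj16 (0.0032), Mt1 (-0.032) and Egr1 (-0.16) without the block, and Notch2 (0.065) and Aqp4 (0.047) without cells passing another gate. Depth limits the shares in library 2, where 41 of 134 cells fell below 1000 UMIs.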

Other observations

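Further genes stood apart without belonging to a group described above. The pump beta subunit Atp1b1 stood at 48.4 and 106 CPM in the ependymal-like cells against 905 and 511 in all other barcodes (log2 fold -3.14 ± 0.43), and its call was lost once neurons left the reference. The polysialyltransferase gene St8sia2, on chromosome 7 from 73939119 to 74013690, stood at 231 and 208 CPM in the ependymal-like cells with no UMI in astrocytes, at least 31.8-fold higher, though DESeq2 did not call it. The calcium-binding annexin Anxa11 (176 and 191 CPM, at least 26.3-fold) and the RNA-binding protein gene Rbpms (214 and 199 CPM, at least 29.9-fold) showed the same pattern against astrocytes, Rbpms without a DESeq2 call.

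Of 6 sex-linked genes tested against all other barcodes, 1 was higher and 1 lower. Tsix was higher, at 20.7 and 16.9 CPM against 6.09 and 3.75 (log2 fold 1.97 ± 0.69, edgeR adjusted p = 0.038), from 10 UMIs. Ddx3y on the Y chromosome stood at 27.6 and 12.7 CPM against 52.9 and 69.9 (-1.49 ± 0.50, edgeR adjusted p = 0.0291). Xist stood at 69.1 and 84.7 CPM against 154 and 381 in astrocytes (-1.60 ± 0.52, edgeR adjusted p = 0.00821). DESeq2 called neither Ddx3y nor Xist in these comparisons.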
